A study of Mus musculus with 24 samples.

Results

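The comparison described here is the resting genotype difference in a co-culture of mouse spleen lymphocytes with bone marrow-derived macrophages (BMDMs): 3 libraries made with Tmem175-/- BMDMs (KO) against 3 libraries made with WT BMDMs (WT), neither given tumour antigen, out of 24 libraries in the series. The members were chosen by their column names in the authors' table of raw counts, and the difference was followed over all 14099 genes that passed the filter on low counts, of 55487 listed. The other 18 libraries received tumour antigen, alone or with IL-1β or IL-18, and entered only the estimate of the spread and, for the 3 KO and 3 WT libraries with antigen alone, a test of where the genotype difference changed. The labels also list, as a cell line, B16-F10-OVA, a mouse melanoma line that carries ovalbumin. KO replicate 1 has the genotype Tmem175-/- in every label field, whereas the genotype field of the other 11 KO libraries of the series names other genes although their titles read Tmem175-/-. It reads Tmem176-/- and Tmem177-/- for KO replicates 2 and 3, and Tmem178-/-, Tmem179-/- and Tmem180-/- for the 3 KO libraries with antigen alone. The labels do not give the genotype of the lymphocytes, the age or sex of the mice, the ratio of the cells, the time in culture, the deleted part of the gene, or whether replicates are separate mice, so p-values measure only the spread between these samples, which may be technical.

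TMEM175 is a cation channel of endosomes and lysosomes that conducts potassium and protons and takes part in setting lysosomal pH. Macrophages depend on these compartments to break down what they take up, to handle lipid and iron, and to process antigen. BMDMs are grown from marrow progenitors, usually with the growth factor CSF1, and when lymphocytes are added to them the RNA of both populations is read together in a bulk library.

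The macrophage marker Csf1r was read far above the lymphocyte markers Cd3e and Cd79a in every library. Csf1r, the CSF1 receptor that defines the lineage, was at 1699, 1701 and 1733 CPM in KO and 1808, 1867 and 1837 CPM in WT, where CPM are read counts scaled by library size to a common total, whereas Cd3e, a chain of the T cell receptor complex, was at 0.786, 1.49 and 1.17 CPM in KO and 0.790, 1.06 and 0.984 CPM in WT. Cd79a, a chain of the B cell receptor, was likewise low, at 1.57, 1.44 and 1.93 CPM in KO and 1.48, 0.965 and 1.48 CPM in WT. The lymphocytes named in the labels were thus read at low levels in these defining markers. Other members of the T and B cell marker lists, such as Il7r and Cd22, were read higher and are given below. Blnk, on the B cell list, was at 197, 167 and 196 CPM in KO and 153, 155 and 156 CPM in WT. Which cells the RNA of these members came from was not tested. Of 7 melanocyte and melanoma markers, Tyr, Dct, Tyrp1 and Sox10 had no count in any of the 6 libraries, Pmel was at 0.344, 0.373 and 0.359 CPM in KO and 0.345, 0.0483 and 0.344 CPM in WT, and Mlana was at 0.0491, 0.0533 and 0 CPM in KO and 0.0987, 0 and 0.0492 CPM in WT. The last, Mitf, is also a macrophage gene and is given with its values below. No erythroid marker passed the filter.

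Tmem175 itself fell to 15, 14.1 and 14.6 CPM in KO, against 26.1, 25.5 and 24.4 CPM in WT (log2 fold change -0.79 ± 0.07 with adjusted p = 3.74e-09). Its groups did not overlap, and the counts that remained were not resolved by exon in the deposited table. In the KO and WT libraries with antigen alone it was at 7.61, 8.75 and 8.12 CPM in KO and 13.7, 16.3 and 15.7 CPM in WT, again without overlap. Because the genotype field of KO replicates 2 and 3 names other TMEM genes, these were read too. Tmem176b, a membrane protein of dendritic cells and macrophages, was at 40.6, 41.4 and 37.6 CPM in KO and 81.8, 82.2 and 83.2 CPM in WT (log2 fold change -1.05 ± 0.05 with adjusted p = 7.71e-16), and its neighbour Tmem176a was at 18.5, 21.3 and 19.4 CPM in KO and 40.1, 39.8 and 39.3 CPM in WT (log2 fold change -1.01 ± 0.05 with adjusted p = 3.72e-15). Both were lower by about the same amount in all 3 KO replicates, including replicate 1. Tmem177 was at 5.06, 4.26 and 4.22 CPM in KO and 5.03, 4.54 and 4.67 CPM in WT (log2 fold change -0.07 ± 0.13 with adjusted p = 0.775). All 3 KO libraries lay below all 3 WT libraries in Tmem175, whichever genotype their field gives. Tmem177 was looked at because of the labels, outside the rule for named genes.

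Libraries held 19062267 to 22755541 counts, and the first principal component of the 6 libraries, with 73.5% of the variance, separated KO from WT. The second, with 10.9%, set the libraries numbered 2 of both genotypes apart from the others. KO replicate 2 lay above KO replicates 1 and 3 in interferon-inducible genes, and WT replicate 2 lay below WT replicates 1 and 3 in fibroblast and matrix genes. By summed level, KO replicate 2 was also the lowest KO library in fibroblast markers. WT replicate 2 was the highest WT library in interferon-stimulated genes and interferon-inducible GTPases. Groups of genes that rest on these libraries are given with and without them below. Immunoglobulin genes took 0.446%, 0.324% and 0.341% of the counts in KO and 0.0160%, 0.0158% and 0.0192% in WT.

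Of the 14099 genes, 2379 (16.9%) passed edgeR's quasi-likelihood test at a Benjamini-Hochberg adjusted p under 0.05, 1357 of them higher (9.62%) and 1022 lower (7.25%) in KO. Many differences were small: 630 of the higher and 250 of the lower genes differed by less than 1.2-fold, whereas 262 rose and 318 fell by at least 2-fold. The median log2 fold change was 0.01 over all genes tested. Leaving out KO replicate 3 reduced the lower genes to 631, of which 603 were among the 1022. No other single library moved a count of calls over all genes by more than 1.5 times. For every gene named below as changed except Pcna, the 3 KO values and the 3 WT values did not overlap. For genes picked by the size of their change this was a condition of being named, so it adds no evidence there. Counts of list members without antigen are to be read beside the 9.62% higher and 7.25% lower over all genes. Counts of up to 3 members of a gene list are given as they stand, and leaving out 1 library removed or added members in many of these.

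**Figure D1:**
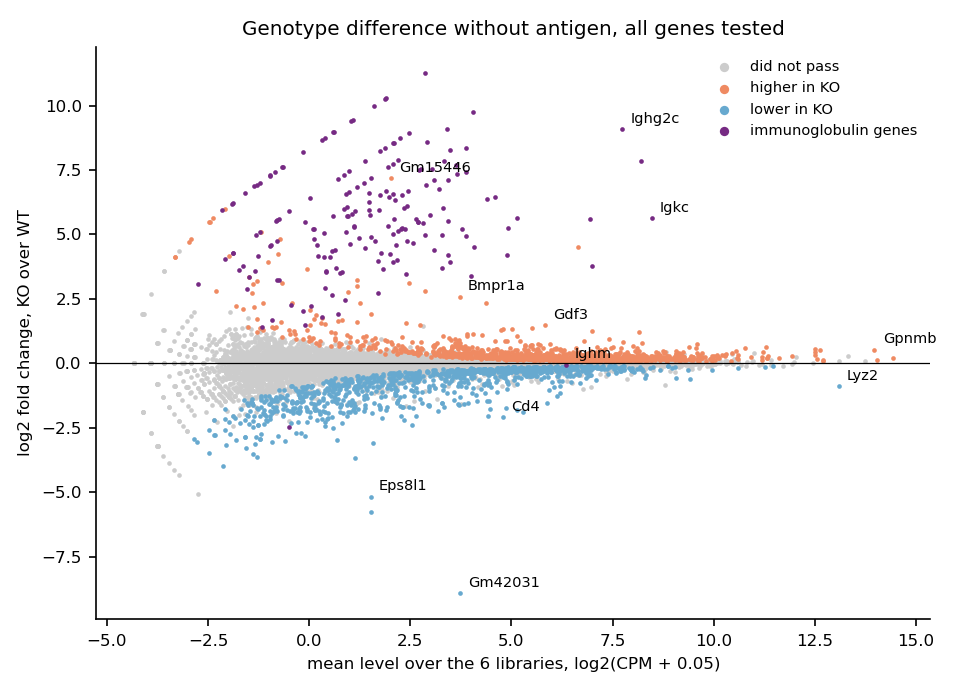
Log2 fold change of KO over WT without antigen (vertical axis) against the mean level over the 6 libraries on a log2(CPM + 0.05) scale (horizontal axis) for each gene tested. Immunoglobulin genes (purple) form the upper cloud, with Ighm near 0, while most other called genes (orange, higher in KO; blue, lower in KO) lie close to the line.

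Antibody genes gave the widest differences. Heavy chains of IgG, which are class-switched, were nearly confined to KO. Ighg2c, the constant region of IgG2c, was at 514, 366 and 392 CPM in KO and 0.543, 0.869 and 0.935 CPM in WT. Ighg2b was at 698, 518 and 531 CPM in KO and 1.43, 2.51 and 3.59 CPM in WT. Ighg1 was at 303, 208 and 217 CPM in KO and 5.48, 3.52 and 6.1 CPM in WT. The log2 fold changes were 9.07 ± 0.36 (adjusted p = 1.67e-11), 7.85 ± 0.35 (adjusted p = 5.12e-11) and 5.59 ± 0.29 (adjusted p = 4.86e-10), where the error is the SE of the fit. Igha, the IgA constant region, followed at 274, 202 and 233 CPM in KO and 17.6, 14.5 and 19.7 CPM in WT (log2 fold change 3.77 ± 0.25 with adjusted p = 8.60e-09), and Iglc1 of the lambda light chain at 21.8, 17.1 and 15.4 CPM in KO and 1.33, 1.79 and 1.08 CPM in WT (log2 fold change 3.68 ± 0.32 with adjusted p = 2.18e-07). Every KO library stood above every WT library for each of these. Ighg3 had 222 counts over the 3 KO libraries and 2 over the 3 WT libraries, a KO to WT ratio of 111 (exact interval 30.3 to 921) that covers counting error only (adjusted p = 3.28e-06). In contrast, Ighm, the heavy chain of IgM that B cells carry before class switching, did not pass the test, at 84.5, 79.6 and 74.7 CPM in KO and 77, 85.6 and 85.5 CPM in WT (log2 fold change -0.06 ± 0.18 with adjusted p = 0.892). Of the 12 constant regions tested, 10 rose, of which Ighg3 and Ighe averaged under 3 counts a WT library, and 1 fell, Ighd, the IgD heavy chain of resting B cells, at 0.393, 0.0533 and 0.135 CPM in KO and 0.839, 1.11 and 1.43 CPM in WT (log2 fold change -2.49 ± 0.40 with adjusted p = 4.36e-05).

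The variable segments, summed over all those listed, lay in the same direction. The 183 heavy-chain segments came to 633, 462 and 492 CPM in KO and 13.5, 13.2 and 17.6 CPM in WT. The 160 kappa segments came to 1081, 767 and 830.4 CPM in KO and 17.1, 16.2 and 26.5 CPM in WT, and the 3 lambda segments to 71.4, 52.7 and 52.4 CPM in KO and 3.75, 2.7 and 3.0 CPM in WT. No KO library overlapped a WT library in these sums. Only 83 heavy, 79 kappa and 3 lambda segments passed the filter on low counts, many of them through libraries in which they are high, so how many of those passed the test is not given. Near-identical segments can share reads, and 107 of the called immunoglobulin genes averaged under 3 counts a WT library, so single folds of segments are not given. In bulk samples fewer cells of a type and less RNA per cell cannot be told apart, and this holds for every cell-type marker below.

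Genes of plasma cells, the antibody-secreting end stage of B cells, rose in part. 10 of 18 tested members of the list rose and none fell (median log2 fold change 0.29). Mzb1, a chaperone of antibody assembly, was at 1.38, 1.01 and 0.853 CPM in KO and 0, 0.0483 and 0.0492 CPM in WT (KO to WT ratio of counts 32.9 (exact interval 8.77 to 278), adjusted p = 3.36e-06). Derl3, a channel that clears misfolded proteins from the endoplasmic reticulum, was at 1.33, 1.01 and 1.17 CPM in KO and 0.148, 0.145 and 0.394 CPM in WT (log2 fold change 2.33 ± 0.53 with adjusted p = 0.00286). Pou2af1, a coactivator of immunoglobulin transcription, was at 4.47, 3.67 and 3.64 CPM in KO and 0.790, 0.579 and 0.935 CPM in WT (log2 fold change 2.35 ± 0.34 with adjusted p = 3.68e-05). Sdc1, which encodes the plasma cell marker CD138 but is also read in macrophage cultures, was at 171, 169 and 176 CPM in KO and 129, 119 and 127 CPM in WT (log2 fold change 0.46 ± 0.06 with adjusted p = 1.49e-05). Xbp1, the transcription factor of the secretory programme, was at 145, 142 and 143 CPM in KO and 135, 142 and 134 CPM in WT and did not pass.

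Markers of B cells before that stage fell more often than they rose: of 16 tested, 2 rose and 7 fell. Pax5, the factor that holds B cell identity, was at 0.197, 0.266 and 0.180 CPM in KO and 1.63, 1.16 and 1.82 CPM in WT (log2 fold change -2.82 ± 0.40 with adjusted p = 5.39e-06). Spib, a factor of B cells and plasmacytoid dendritic cells, was at 0.540, 0.426 and 0.584 CPM in KO and 1.58, 2.03 and 2.12 CPM in WT (log2 fold change -1.86 ± 0.27 with adjusted p = 7.68e-06). Blk, a B cell kinase, was at 0.0983, 0.106 and 0.135 CPM in KO and 0.543, 0.531 and 0.590 CPM in WT (WT to KO ratio of counts 4.86 (exact interval 2.12 to 13), adjusted p = 0.000254). Cd22 and Blnk, which macrophages also express in some settings, were the members that rose, with Cd22 at 66.9, 53.5 and 60.2 CPM in KO and 42.7, 41.3 and 39.7 CPM in WT (log2 fold change 0.55 ± 0.06 with adjusted p = 5.24e-08). Ms4a1, which encodes CD20, was at 2.65, 2.34 and 2.38 CPM in KO and 1.43, 1.64 and 1.57 CPM in WT and did not pass (adjusted p = 0.0725). The B cell genes given here, other than Cd22 and Blnk, were at 2.65 CPM or below in every library.

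Outside the antibody loci, several genes were read almost exclusively or mainly in one genotype. Gm42031, a predicted gene, had 3 counts over the KO libraries and 1620 over the WT libraries, a WT to KO ratio of 541 (exact interval 185 to 2625). Gm28438, also predicted, had 6 counts in KO and 342 in WT, a WT to KO ratio of 57.1 (exact interval 26 to 157). Gm15446 went the other way with 486 counts in KO and 3 in WT, a KO to WT ratio of 162 (exact interval 55 to 787). These intervals cover counting error only. Lrmda, a melanocyte differentiation-associated gene, was at 10.2, 9.64 and 9.74 CPM in KO and 0.938, 1.16 and 1.33 CPM in WT (log2 fold change 3.1 ± 0.14 with adjusted p = 1.32e-15). Eps8l1, a relative of an actin regulator, was at 0.0491, 0.0533 and 0.314 CPM in KO and 5.53, 5.12 and 5.81 CPM in WT (log2 fold change -5.17 ± 0.32 with adjusted p = 1.09e-12). Mid1-ps1, a pseudogene, was at 0.344, 0.426 and 0.180 CPM in KO and 4.34, 4.44 and 3.2 CPM in WT and its parent Mid1, an E3 ubiquitin ligase of microtubules, at 4.77, 6.07 and 4.36 CPM in KO and 13.4, 16 and 14 CPM in WT (log2 fold change -1.52 ± 0.11 with adjusted p = 4.37e-11). Reads of the pseudogene and of Mid1 may be shared. All of these also passed with antigen in the same direction, in libraries that share none with the comparison here: the log2 fold changes there were 3.38 for Lrmda, -4.48 for Eps8l1, -3.06 for Mid1-ps1 and -1.24 for Mid1.

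Position was examined by gene order in the RefSeq table, whose assembly is older than that of the counts, so no coordinates are given. Among the 10 tested genes on either side of Tmem175, 3 of 20 passed, all higher in KO. That share was close to the 16.9% called over all genes tested. The genes that passed were Gm15446, Zfp932 and Crlf2. Zfp932, a zinc finger gene, was at 12.6, 12.6 and 14.3 CPM in KO and 9.57, 10.4 and 9.3 CPM in WT (log2 fold change 0.44 ± 0.08 with adjusted p = 0.000282). Crlf2, a subunit of the receptor for thymic stromal lymphopoietin, was at 21.8, 23.2 and 21.4 CPM in KO and 19.7, 19 and 16.9 CPM in WT (log2 fold change 0.25 ± 0.06 with adjusted p = 0.00341). Gm15446 and Zfp932 are adjacent in that order. The genes directly beside Tmem175, Gak and Dgkq, did not pass, with log2 fold changes of -0.0042 and -0.02. Among the 20 chromosomes with at least 50 tested genes, 13.8% to 18.7% of the genes on each were called and not immunoglobulin genes.

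Genes of other functions that moved most included secreted factors and receptors. Bmpr1a, a receptor of bone morphogenetic proteins, rose to 20.8, 23 and 23.7 CPM in KO, against 4.19, 3.19 and 3.84 CPM in WT (log2 fold change 2.59 ± 0.09 with adjusted p = 9.72e-19). Gdf3, a ligand of the TGF-β superfamily, was at 85.4, 78.3 and 85.2 CPM in KO and 30.3, 30.2 and 28.7 CPM in WT (log2 fold change 1.48 ± 0.08 with adjusted p = 5.32e-14). Lyz1, the lysozyme of Paneth cells in the mouse gut, was at 40.3, 31.7 and 30.8 CPM in KO and 6.96, 6.42 and 7.13 CPM in WT (log2 fold change 2.33 ± 0.16 with adjusted p = 6.31e-09), while its close copy Lyz2, the lysozyme of macrophages, was at 6194, 6176 and 5877 CPM in KO and 11181, 11027 and 11665 CPM in WT (log2 fold change -0.89 ± 0.06 with adjusted p = 5.11e-10). The 2 lysozyme genes are alike in sequence, and how the authors' counting treated shared reads is not given in the sources used here.

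Clec1a, a C-type lectin receptor, also rose, at 8.2, 10.2 and 10.9 CPM in KO and 3.16, 3.48 and 3.74 CPM in WT (log2 fold change 1.5 ± 0.14 with adjusted p = 5.39e-09). Vsig8, an immunoglobulin-domain protein, was at 52.9, 40.5 and 44.7 CPM in KO and 19.4, 17.4 and 18.1 CPM in WT (log2 fold change 1.33 ± 0.12 with adjusted p = 8.14e-09). Ptgfrn, a tetraspanin-associated inhibitor of a prostaglandin receptor, was at 43.7, 35 and 39.2 CPM in KO and 16.8, 15.2 and 15.3 CPM in WT (log2 fold change 1.32 ± 0.10 with adjusted p = 1.18e-09). Mamdc2, a secreted matrix protein, was at 442, 299 and 442 CPM in KO and 176, 167 and 169.995 CPM in WT (log2 fold change 1.21 ± 0.10 with adjusted p = 8.82e-08). Cd276, the checkpoint ligand B7-H3, was at 25, 16.9 and 19.6 CPM in KO and 9.87, 9.51 and 8.61 CPM in WT (log2 fold change 1.13 ± 0.11 with adjusted p = 1.37e-08). Adss, an enzyme of AMP synthesis, changed less but with little spread, at 78.5, 86.5 and 81.9 CPM in KO and 55, 54.9 and 54.4 CPM in WT (log2 fold change 0.59 ± 0.04 with adjusted p = 4.81e-12). None of these 6 genes had overlapping groups, which was required of those picked by the size of their change.

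Among the genes that fell, Plxdc2, a plexin-domain receptor, was at 7.07, 8.63 and 9.43 CPM in KO and 34.3, 36 and 32.3 CPM in WT (log2 fold change -2.03 ± 0.09 with adjusted p = 1.94e-15). Dynlt1b, a dynein light chain, was at 6.14, 7.35 and 7.59 CPM in KO and 23, 19.4 and 20.7 CPM in WT (log2 fold change -1.58 ± 0.09 with adjusted p = 6.66e-13). Dynlt1b belongs to a set of near-identical copies that can share reads. Hmga2, a chromatin protein of growing cells, was at 27.4, 33 and 29.8 CPM in KO and 71.1, 113 and 77.3 CPM in WT (log2 fold change -1.54 ± 0.13 with adjusted p = 6.14e-08). Marcksl1, a regulator of actin, was at 9.97, 13.8 and 10.9 CPM in KO and 29.6, 36.1 and 29.3 CPM in WT (log2 fold change -1.46 ± 0.10 with adjusted p = 1.44e-09). Itgad, an integrin chain of splenic macrophages, was at 2.21, 2.29 and 2.42 CPM in KO and 7.2, 5.79 and 6.79 CPM in WT (log2 fold change -1.51 ± 0.16 with adjusted p = 3.51e-08). Cd4 fell to 11, 9.59 and 10.7 CPM in KO, against 46.3, 42.2 and 45.9 CPM in WT (log2 fold change -2.1 ± 0.07 with adjusted p = 1.90e-18), while Cd3e did not pass (adjusted p = 0.604). Of 22 T cell markers tested, 1 rose and 4 fell, Cd4 included (22.7% called, against 16.9% of all genes). The member that rose was Il7r, a chain of the interleukin 7 receptor, at 892, 923 and 905 CPM in KO and 603, 596 and 603 CPM in WT (log2 fold change 0.59 ± 0.08 with adjusted p = 1.03e-05). Cd4 and Il7r lay well above Cd3e in every library, and which cells their RNA came from was not tested.

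**Figure D2:**
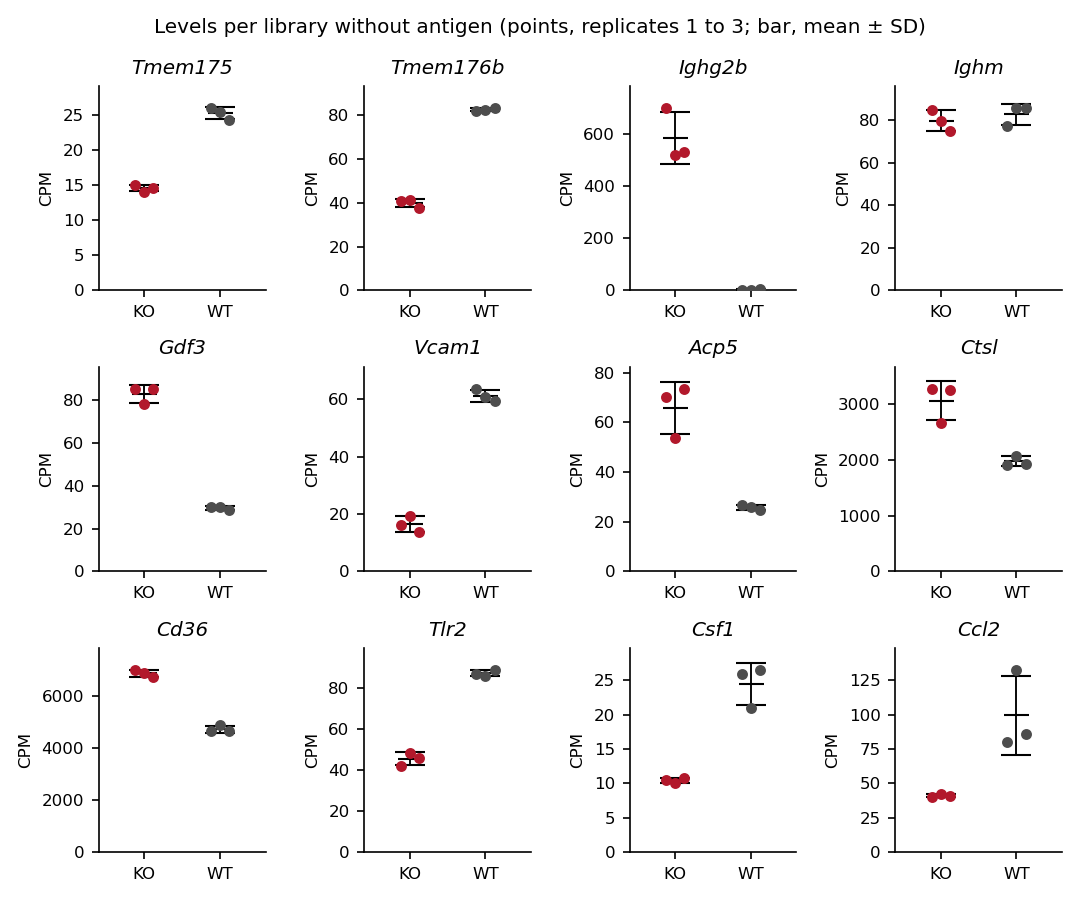
CPM (vertical axis, from 0) of 12 genes in the 3 KO libraries (left in each panel) and 3 WT libraries (right) without antigen. Points are libraries, the horizontal mark is the mean and the bar is 1 SD. The groups overlap for Ighm and for none of the other 11 genes.

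Lysosomal genes rose as small, repeated differences. All 5 lists of lysosomal parts had a larger share of members higher in KO than the 9.62% over all genes, and in the proton pump and the hydrolases no member fell. The vacuolar ATPase, which acidifies the lysosome, had 10 of 18 members higher (median log2 fold change 0.14). Atp6v1b2 was at 1390.4, 1347 and 1396 CPM in KO and 1072, 1147 and 1069 CPM in WT (log2 fold change 0.33 ± 0.03 with adjusted p = 1.34e-08). Atp6v1c1 was at 372, 308 and 357 CPM in KO and 280.1, 289.7 and 272 CPM in WT (log2 fold change 0.30 ± 0.04 with adjusted p = 1.15e-05). Atp6v0a1 was at 899, 885 and 886 CPM in KO and 678, 768 and 687 CPM in WT (log2 fold change 0.32 ± 0.06 with adjusted p = 0.000389), and their groups did not overlap. Atp6v0d1, another subunit, was at 183, 161 and 177 CPM in KO and 167, 173 and 172 CPM in WT and did not pass.

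Proteases of the lysosome followed. 8 of 14 cathepsins and legumain rose and 1 fell (median 0.25). Ctsl, cathepsin L, was at 3265, 2663 and 3243 CPM in KO and 1911, 2069 and 1928 CPM in WT (log2 fold change 0.63 ± 0.08 with adjusted p = 1.05e-05). Ctss, the cathepsin that trims the MHC class II invariant chain, was at 6153, 7409 and 6558 CPM in KO and 5225, 4686 and 4964 CPM in WT (log2 fold change 0.44 ± 0.07 with adjusted p = 7.10e-05). Ctsh, cathepsin H, was at 432, 460.2 and 438 CPM in KO and 347, 333 and 336 CPM in WT (log2 fold change 0.39 ± 0.04 with adjusted p = 1.28e-08). Lgmn, legumain, was at 1691, 1754 and 1737 CPM in KO and 1377, 1440.3 and 1352 CPM in WT (log2 fold change 0.31 ± 0.04 with adjusted p = 4.54e-07). Ctsz, cathepsin Z, was at 1194, 1170.4 and 1201 CPM in KO and 989, 993 and 987 CPM in WT (log2 fold change 0.26 ± 0.03 with adjusted p = 3.86e-07). The KO libraries lay above the WT libraries in each. Ctsc, the activator of granzymes and neutrophil proteases, was at 327, 668 and 388 CPM in KO and 591, 584 and 592 CPM in WT with overlapping groups and did not pass. KO replicates 1 and 3 lay below every WT library and KO replicate 2 above them for Ctsc, and without KO replicate 2 it fell (adjusted p = 9.73e-13).

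Of the other lysosomal hydrolases, 13 of 28 rose (median 0.11). The largest log2 fold change among them was that of Acp5, tartrate-resistant acid phosphatase of osteoclasts and activated macrophages, at 70.01, 53.7 and 73.5 CPM in KO and 26.7, 26 and 24.7 CPM in WT (log2 fold change 1.35 ± 0.08 with adjusted p = 2.62e-10). Gla, α-galactosidase A, was at 259, 257 and 272 CPM in KO and 218, 216 and 212 CPM in WT (log2 fold change 0.28 ± 0.03 with adjusted p = 5.80e-07). Galns, which degrades keratan sulfate, was at 138, 123 and 133 CPM in KO and 101, 103 and 98.7 CPM in WT (log2 fold change 0.38 ± 0.05 with adjusted p = 1.05e-05). Naglu, which degrades heparan sulfate, was at 90.3, 90.2 and 91.6 CPM in KO and 75.1, 74.1 and 68.9 CPM in WT (log2 fold change 0.32 ± 0.05 with adjusted p = 7.72e-06). Tpp1, a peptidase of the lysosome, was at 460.3, 403 and 443 CPM in KO and 373, 365 and 359 CPM in WT (log2 fold change 0.25 ± 0.04 with adjusted p = 2.66e-05). Hexa, a β-hexosaminidase chain, was at 1173, 1201 and 1208 CPM in KO and 1007, 1062 and 1037 CPM in WT (log2 fold change 0.21 ± 0.04 with adjusted p = 0.000224).

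In the lysosomal membrane and its supply routes, 10 of 21 members rose and 1 fell (median 0.11), and 6 rose without KO replicate 3. Gm2a, the activator of ganglioside breakdown, was at 602, 635 and 592 CPM in KO and 474, 472 and 462 CPM in WT (log2 fold change 0.38 ± 0.05 with adjusted p = 5.65e-06). Igf2r, which carries hydrolases to the lysosome, was at 623, 586 and 629 CPM in KO and 523, 535 and 499.997 CPM in WT (log2 fold change 0.24 ± 0.04 with adjusted p = 3.18e-05). Sort1, another sorting receptor, was at 322, 298 and 322 CPM in KO and 247, 237 and 235 CPM in WT (log2 fold change 0.39 ± 0.08 with adjusted p = 0.00104). Of 16 lysosomal ion channels and transporters, 5 rose, and 1, Tmem175, fell, with 3 higher without KO replicate 1, KO replicate 3, WT replicate 1 or WT replicate 3. Tpcn2, a calcium and sodium channel of these membranes, was at 115, 111 and 119 CPM in KO and 87.5, 91.7 and 82.6 CPM in WT (log2 fold change 0.40 ± 0.05 with adjusted p = 1.52e-07). Mcoln1, the calcium channel TRPML1, was at 47.4, 43.9 and 47.5 CPM in KO and 41.9, 38.6 and 40.3 CPM in WT (log2 fold change 0.20 ± 0.05 with adjusted p = 0.00703). P2rx4, an ATP-gated channel, was at 348, 344 and 353 CPM in KO and 311, 298 and 306 CPM in WT (log2 fold change 0.19 ± 0.04 with adjusted p = 0.00051). Clcn7, the chloride-proton exchanger, was at 238, 277 and 258 CPM in KO and 243, 256 and 246 CPM in WT and did not pass.

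Autophagy genes and regulators of the lysosomal transcription factor TFEB were higher in 11 of 40 and lower in 2 (median 0.08), and the higher count fell to 6, 5, 5 and 7 without KO replicate 1, KO replicate 3, WT replicate 1 or WT replicate 3, each in turn. Gabarapl1, a coat protein of autophagosomes, was at 287, 243 and 291 CPM in KO and 224, 217 and 226 CPM in WT (log2 fold change 0.30 ± 0.04 with adjusted p = 1.20e-05). Mitf, a relative of TFEB, was at 213, 199.9 and 214 CPM in KO and 183, 173 and 179 CPM in WT (log2 fold change 0.23 ± 0.04 with adjusted p = 0.000387). Tax1bp1, a cargo receptor, was at 352, 339 and 355 CPM in KO and 309, 307 and 306 CPM in WT (log2 fold change 0.18 ± 0.03 with adjusted p = 2.78e-05). Ddit4, a brake on mTORC1, fell, at 1.18, 1.54 and 1.62 CPM in KO and 3.36, 2.41 and 3.15 CPM in WT (log2 fold change -1.03 ± 0.21 with adjusted p = 0.000799).

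Promoters of these lysosomal members were read because TFEB and its relatives bind elements with a CACGTG core. Windows from 250 bases before to 50 after the first listed start site were taken from RefSeq (GRCm38.p6, 1 per gene), and CACGTG, which reads the same on both strands, was searched. It was present in 21.9% of the promoters of the lysosomal members that rose (7 of 32 with a window), in 27.6% of all tested lysosomal members and in 10.1% of the 10220 tested genes with a window. A match is a description and not a binding site. The windows of Gla (chrX:134600956-134601255, minus strand) and Ctsl (chr13:64370471-64370770, minus strand) are shown as the called members with matches that were described above, with the matches in capitals.
Gla: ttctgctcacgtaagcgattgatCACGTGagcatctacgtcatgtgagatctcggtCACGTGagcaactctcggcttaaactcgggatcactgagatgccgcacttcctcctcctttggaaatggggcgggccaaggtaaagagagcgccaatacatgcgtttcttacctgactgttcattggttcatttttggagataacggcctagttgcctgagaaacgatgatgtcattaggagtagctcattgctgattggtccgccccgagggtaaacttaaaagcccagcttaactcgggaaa
Ctsl: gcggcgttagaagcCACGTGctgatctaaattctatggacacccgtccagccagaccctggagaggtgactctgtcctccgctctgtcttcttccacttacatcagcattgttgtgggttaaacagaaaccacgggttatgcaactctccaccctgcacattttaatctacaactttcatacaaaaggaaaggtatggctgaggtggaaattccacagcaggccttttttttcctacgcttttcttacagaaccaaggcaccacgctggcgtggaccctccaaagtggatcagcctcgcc

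**Figure D3:**
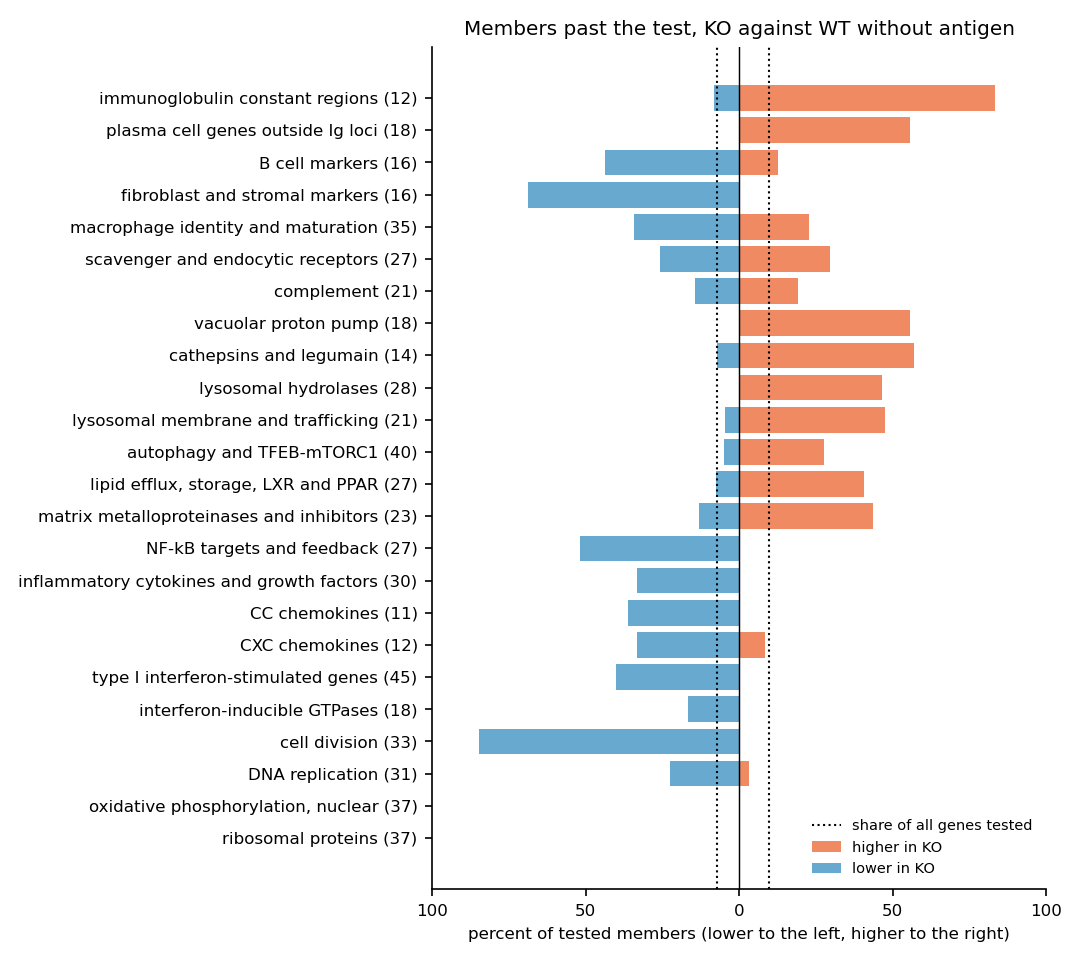
Percent of the tested members of each gene list that were higher (orange, right) or lower (blue, left) in KO than in WT without antigen, with the number of members tested in brackets. Dotted lines mark the 9.62% higher and 7.25% lower over all genes tested. Lysosomal lists extend to the right, inflammatory, interferon and cell division lists to the left, and the oxidative phosphorylation and ribosomal lists show no bar.

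Genes of lipid handling rose beside the lysosomal ones, with 11 of 27 higher and 2 lower (median 0.20). Cd36, a receptor for fatty acids and oxidised lipoprotein, was at 7022, 6918 and 6747 CPM in KO and 4682, 4893 and 4653 CPM in WT (log2 fold change 0.54 ± 0.09 with adjusted p = 0.000235). Apoe, the carrier of lipid leaving the macrophage, was at 6586, 6152 and 6621 CPM in KO and 5300.3, 5006 and 5075 CPM in WT (log2 fold change 0.33 ± 0.04 with adjusted p = 2.19e-06). Soat1, which esterifies cholesterol for storage, was at 863, 812 and 873 CPM in KO and 703, 697 and 708 CPM in WT (log2 fold change 0.27 ± 0.03 with adjusted p = 1.60e-07). Plin2, the coat of lipid droplets, was at 1134, 1278 and 1194 CPM in KO and 924, 994 and 949.95 CPM in WT (log2 fold change 0.33 ± 0.06 with adjusted p = 0.000509). The nuclear receptors of this programme rose too, Nr1h3, which encodes LXRα, at 52.3, 46 and 48.7 CPM in KO and 36.5, 35.6 and 36.7 CPM in WT (log2 fold change 0.43 ± 0.06 with adjusted p = 6.11e-06). Pparg, which encodes PPARγ, was at 95.4, 99.6 and 104 CPM in KO and 76.2, 81.6 and 77.9 CPM in WT (log2 fold change 0.34 ± 0.05 with adjusted p = 1.18e-05). Lpl, lipoprotein lipase, was at 10927, 11706 and 11258 CPM in KO and 8920.4, 9703 and 8865 CPM in WT and did not pass (log2 fold change 0.30 ± 0.18 with adjusted p = 0.298), although the 3 KO values lay above the 3 WT values and it passed with the 6 libraries alone (adjusted p = 0.000904). Of 24 sterol synthesis genes, 1 rose.

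Iron genes rose in 6 and fell in 2 of 21. Slc11a1, the metal transporter of phagosomes, was at 427, 421 and 415 CPM in KO and 369, 360.4 and 359 CPM in WT (log2 fold change 0.21 ± 0.03 with adjusted p = 1.80e-06). Slc48a1, which moves heme out of the phagolysosome, was at 321, 279 and 303 CPM in KO and 268, 236 and 242 CPM in WT (log2 fold change 0.27 ± 0.05 with adjusted p = 8.20e-05). Steap3, an iron reductase, was at 91.1, 81.9 and 92.5 CPM in KO and 66.3, 75.7 and 71 CPM in WT (log2 fold change 0.32 ± 0.06 with adjusted p = 0.000477). Spic, the factor of iron-recycling splenic macrophages, fell, at 3.19, 2.45 and 3.14 CPM in KO and 7.2, 5.94 and 7.97 CPM in WT (log2 fold change -1.25 ± 0.26 with adjusted p = 0.00246). Of 26 targets of the antioxidant factor NRF2, 6 rose and none fell, but the count was 1 without KO replicate 1, 10 without KO replicate 2, 3 without KO replicate 3 and 2 without WT replicate 2. Among the lipid mediator genes, Pla2g7, which degrades platelet-activating factor, was at 372, 407 and 365 CPM in KO and 246, 197 and 219.99 CPM in WT (log2 fold change 0.79 ± 0.06 with adjusted p = 2.77e-10). Lta4h, which makes leukotriene B4, was at 105, 97.8 and 100.2 CPM in KO and 85.5, 83.9 and 85.9 CPM in WT (log2 fold change 0.25 ± 0.04 with adjusted p = 6.96e-05). Hpgd, which degrades prostaglandins, fell, at 4.77, 3.14 and 4.94 CPM in KO and 10.7, 7.96 and 9.64 CPM in WT (log2 fold change -1.13 ± 0.19 with adjusted p = 7.22e-05).

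Markers of macrophage identity moved in both directions, 8 higher and 12 lower of 35, with 7 lower without KO replicate 3. Gpnmb, a glycoprotein of lipid-laden macrophages, was at 19790.1, 17534 and 19455 CPM in KO and 12927, 13519.8 and 12989 CPM in WT (log2 fold change 0.53 ± 0.07 with adjusted p = 3.69e-05). Maf, a factor of mature macrophages, fell, at 265, 273 and 283 CPM in KO and 326, 352 and 337 CPM in WT (log2 fold change -0.31 ± 0.04 with adjusted p = 4.18e-06), and so did Timd4, a receptor for dying cells on resident macrophages, at 0.0983, 0.266 and 0.0449 CPM in KO and 0.839, 1.45 and 0.984 CPM in WT (WT to KO ratio of counts 8.39 (exact interval 4.02 to 20.2), adjusted p = 4.06e-05). C1qb, a chain of complement C1q, was at 1014, 1285 and 1092 CPM in KO and 1119, 1152 and 1122 CPM in WT and did not pass. Itgax, which encodes CD11c, rose, at 1077, 871 and 946 CPM in KO and 628, 534 and 573 CPM in WT (log2 fold change 0.74 ± 0.14 with adjusted p = 0.00156), and is also counted among dendritic cell markers, of which 1 of 12 rose and 6 fell.

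Receptors for uptake likewise split, with 8 higher and 7 lower of 27 scavenger and endocytic receptors. Scarf1, a scavenger receptor for dying cells, was at 25.9, 31.1 and 27.5 CPM in KO and 19.8, 20.03 and 20.6 CPM in WT (log2 fold change 0.48 ± 0.06 with adjusted p = 4.74e-07). Lrp1, a large endocytic receptor, was at 2569, 2516 and 2540.5 CPM in KO and 2185, 2173 and 2138 CPM in WT (log2 fold change 0.23 ± 0.04 with adjusted p = 0.000137). Lrp12, a relative, was at 218, 215 and 216 CPM in KO and 161, 179 and 169 CPM in WT (log2 fold change 0.35 ± 0.06 with adjusted p = 0.000201). Stab1, stabilin 1 of tissue macrophages, fell, at 577, 482 and 571 CPM in KO and 815, 829 and 814 CPM in WT (log2 fold change -0.59 ± 0.09 with adjusted p = 0.000208). Clec4a1, a lectin, fell, at 142, 161 and 149.6 CPM in KO and 184, 175 and 176 CPM in WT (log2 fold change -0.24 ± 0.04 with adjusted p = 7.52e-05). Mrc1, the mannose receptor, was at 871, 949 and 938 CPM in KO and 966, 1033 and 977 CPM in WT and did not pass. Clec7a, the β-glucan receptor dectin-1, was among the genes with the widest gap in CPM, at 1907, 2292 and 2087 CPM in KO and 1422, 1369 and 1414 CPM in WT (log2 fold change 0.58 ± 0.11 with adjusted p = 0.00119).

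Complement gave 4 higher and 3 lower of 21. C5ar2, a receptor for C5a, was at 16.6, 14.7 and 17.8 CPM in KO and 8.93, 8.78 and 9.15 CPM in WT (log2 fold change 0.87 ± 0.11 with adjusted p = 1.05e-06), while C3, the central component, fell, at 43.1, 57.8 and 43.6 CPM in KO and 65.2, 94.1 and 81.7 CPM in WT (log2 fold change -0.74 ± 0.11 with adjusted p = 0.000127). With the 6 libraries fitted alone, C3 no longer passed (adjusted p = 0.0863). Cd59a, an inhibitor of the membrane attack complex, fell, at 8.25, 7.99 and 9.92 CPM in KO and 11.7, 12.2 and 12 CPM in WT (log2 fold change -0.45 ± 0.08 with adjusted p = 0.000198).

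Proteases of the matrix and their partners rose in 10 and fell in 3 of 23. Mmp14, a membrane-bound collagenase, was at 76.2, 70.4 and 73.4 CPM in KO and 53.6, 48.8 and 51.9 CPM in WT (log2 fold change 0.51 ± 0.04 with adjusted p = 1.47e-09). Mmp27, a matrix metalloproteinase, was at 36.7, 37.2 and 38.7 CPM in KO and 25.3, 26.5 and 23.8 CPM in WT (log2 fold change 0.57 ± 0.06 with adjusted p = 1.20e-08). Plaur, the urokinase receptor, was at 151, 150.01 and 137 CPM in KO and 116, 122 and 121 CPM in WT (log2 fold change 0.29 ± 0.05 with adjusted p = 6.85e-05). Mmp19 was at 177, 139 and 159 CPM in KO and 129, 125 and 131 CPM in WT (log2 fold change 0.30 ± 0.05 with adjusted p = 0.000136), and lost its call when the 6 libraries were fitted alone (adjusted p = 0.08). Of the genes tied to macrophage fusion, Tyrobp, the adaptor DAP12, rose, at 740.2, 759 and 745 CPM in KO and 652, 635 and 619 CPM in WT (log2 fold change 0.24 ± 0.04 with adjusted p = 7.72e-05). Dcstamp, needed for fusion, fell, at 32.2, 30.9 and 28.7 CPM in KO and 42.4, 50.3 and 43 CPM in WT (log2 fold change -0.56 ± 0.08 with adjusted p = 1.18e-05). Costimulatory and checkpoint genes had 5 higher and 5 lower of 25, and the lower count was 2 without KO replicate 1, 1 without KO replicate 3, 3 without WT replicate 1 and 2 without WT replicate 2. Vsir, the checkpoint receptor VISTA, was at 655, 607 and 651 CPM in KO and 515, 515 and 504 CPM in WT (log2 fold change 0.32 ± 0.04 with adjusted p = 3.02e-07). Sirpa, the receptor of the CD47 signal, was at 2705, 2710.2 and 2748 CPM in KO and 2348, 2420.1 and 2388 CPM in WT (log2 fold change 0.19 ± 0.03 with adjusted p = 6.41e-06). Icosl, the ligand of ICOS, fell, at 3.19, 3.99 and 3.41 CPM in KO and 7.95, 8.45 and 8.81 CPM in WT (log2 fold change -1.25 ± 0.11 with adjusted p = 1.48e-09).

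The NF-κB, Toll-like receptor, cytokine and chemokine lists had more members lower than higher in KO. Inflammasome genes were split, with 3 higher and 4 lower of 18 (median 0.0083). That lower count was 1 without KO replicate 1 and 6 without KO replicate 2. Of 27 targets and feedback regulators of NF-κB, 14 fell and none rose (median -0.27), and 8 fell without WT replicate 2. Nfkbiz, a coactivator of secondary response genes, was at 14.3, 13.5 and 15.1 CPM in KO and 27.3, 23.5 and 26.8 CPM in WT (log2 fold change -0.85 ± 0.12 with adjusted p = 5.53e-05). Nfkbia, the inhibitor IκBα, was at 27, 30.2 and 31.2 CPM in KO and 42.7, 43.2 and 41.3 CPM in WT (log2 fold change -0.52 ± 0.09 with adjusted p = 0.000507). Birc3, an inhibitor of cell death, was at 52, 57.1 and 58 CPM in KO and 66.2, 73.1 and 69.7 CPM in WT (log2 fold change -0.32 ± 0.04 with adjusted p = 9.63e-07). The subunit genes Nfkb1 and Nfkb2 fell by less, with log2 fold changes of -0.18 and -0.28 at adjusted p = 0.00128 and 3.82e-05. Tnip3, another feedback regulator, was at 70.01, 80.9 and 73 CPM in KO and 70.4, 80.8 and 69.4 CPM in WT and did not pass.

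Of the Toll-like receptors and adaptors, 4 rose and 8 fell of 28, counts that single libraries shifted: the lower count was 13 without KO replicate 2, 5 without KO replicate 1, 5 without KO replicate 3 and 4 without WT replicate 3, and the higher count was 0 without WT replicate 3, 1 without KO replicate 3, 1 without WT replicate 1, 2 without KO replicate 2 and 2 without WT replicate 2. Tlr2, the receptor for bacterial lipoproteins, was at 42.2, 48.6 and 45.8 CPM in KO and 86.7, 86.1 and 88.9 CPM in WT (log2 fold change -0.94 ± 0.07 with adjusted p = 5.51e-09). Tlr9, the sensor of CpG DNA, was at 18.7, 28.1 and 23 CPM in KO and 34.2, 34.8 and 33.9 CPM in WT (log2 fold change -0.56 ± 0.11 with adjusted p = 0.00111). Cd14, the coreceptor for lipopolysaccharide, was at 152, 186 and 161 CPM in KO and 203, 233 and 213 CPM in WT (log2 fold change -0.38 ± 0.08 with adjusted p = 0.0023). All 3 genes kept their call and direction under every alternative. Wdfy1, an adaptor of TLR3 and TLR4, was at 17.7, 13.6 and 15.6 CPM in KO and 53.9, 58 and 52.6 CPM in WT (log2 fold change -1.8 ± 0.07 with adjusted p = 5.26e-17).

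Cytokines and growth factors gave 10 lower and none higher of 30 (median -0.20). Here too the count moved, to 4 without KO replicate 1, 16 without KO replicate 2, 4 without KO replicate 3 and 6 without WT replicate 3. Csf1, the growth factor of macrophages themselves, fell to 10.5, 10.1 and 10.9 CPM in KO, against 25.9, 21 and 26.5 CPM in WT (log2 fold change -1.22 ± 0.16 with adjusted p = 1.97e-05). Tnfsf10, the death ligand TRAIL, was at 2.75, 5.27 and 3.14 CPM in KO and 6.86, 8.11 and 7.87 CPM in WT (log2 fold change -1.05 ± 0.19 with adjusted p = 0.000291). Tgfb3 was at 0.590, 0.586 and 0.224 CPM in KO and 2.12, 1.11 and 1.67 CPM in WT (log2 fold change -1.82 ± 0.34 with adjusted p = 0.000295). Lif was at 0.540, 0.426 and 0.629 CPM in KO and 1.23, 1.01 and 1.48 CPM in WT (log2 fold change -1.2 ± 0.30 with adjusted p = 0.00452). Igf1, insulin-like growth factor 1, was at 907, 989 and 927 CPM in KO and 889, 929 and 902 CPM in WT and did not pass.

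Chemokines that draw monocytes fell. Ccl2, the ligand of CCR2, was at 40.1, 42.2 and 41 CPM in KO and 79.8, 132 and 86.1 CPM in WT (log2 fold change -1.27 ± 0.22 with adjusted p = 0.000525). Ccl7, another ligand of that receptor, was at 8.45, 10.3 and 9.38 CPM in KO and 19.7, 35.7 and 22.1 CPM in WT (log2 fold change -1.47 ± 0.30 with adjusted p = 0.00237). In both, WT replicate 2 was the highest library and the KO libraries lay close together. In all, 4 of 11 CC chemokines fell and none rose, with 7 lower without WT replicate 1 and 2 lower with the 6 libraries alone. Of 12 CXC and CX3C chemokines, 4 fell and 1 rose, with 2 lower with the 6 libraries alone. Cxcl16, a membrane-bound chemokine that also takes up oxidised lipoprotein, was at 103, 102 and 102 CPM in KO and 126, 126 and 134 CPM in WT (log2 fold change -0.33 ± 0.05 with adjusted p = 4.89e-05), and Cxcl14 rose, at 18, 18.3 and 14.4 CPM in KO and 9.43, 8.11 and 9.4 CPM in WT (log2 fold change 0.91 ± 0.11 with adjusted p = 2.58e-07). Among the receptors, with 2 higher and 8 lower of 21 (5 lower without KO replicate 3), Cmklr1, the chemerin receptor, rose, at 62.3, 54 and 61.9 CPM in KO and 46.7, 41.1 and 44.6 CPM in WT (log2 fold change 0.43 ± 0.06 with adjusted p = 2.09e-06). Fpr2, a formyl peptide receptor, fell, at 3.0, 4.26 and 3.55 CPM in KO and 5.18, 5.7 and 7.23 CPM in WT (log2 fold change -0.75 ± 0.12 with adjusted p = 7.73e-05).

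Interferon-responsive genes depended on which KO library was read. The guanylate-binding proteins and immunity-related GTPases, which attack pathogen-containing vacuoles after interferon-γ, summed to 426, 2052 and 784 CPM in KO and 1796, 1924 and 1773 CPM in WT, so that KO replicates 1 and 3 lay below every WT library and KO replicate 2 above them all. Gbp2, a guanylate-binding protein, was at 98.2, 648 and 198 CPM in KO and 565, 612 and 533 CPM in WT and did not pass (log2 fold change -0.86 ± 0.40 with adjusted p = 0.174), but did without KO replicate 2 (adjusted p = 2.90e-06). Of the 18 tested, 3 fell with all libraries, a count that depended on single libraries: 18 without KO replicate 2 (median -1.54), none without KO replicate 1, KO replicate 3, WT replicate 2 or WT replicate 3, and 1 without WT replicate 1. Without both libraries numbered 2, an alternative chosen after seeing the data, 17 fell.

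Type I interferon-stimulated genes had their lowest summed levels in the same KO libraries, at 1936, 3074 and 2441 CPM in KO and 2871, 3407 and 2966 CPM in WT, with KO replicate 2 within the WT range. Of 45 tested, 18 fell and none rose (median -0.43), and 24 fell with the replicate number added to the fit as a block. Leaving out KO replicate 2 raised the count to 31, whereas it was 5 without KO replicate 1, 6 without KO replicate 3, 4 without WT replicate 2 and 10 without WT replicate 3. Trim30a, a TRIM family protein, was at 91.9, 119 and 106 CPM in KO and 134, 157 and 142 CPM in WT (log2 fold change -0.46 ± 0.08 with adjusted p = 0.000565). Ifit1bl1, a relative of Ifit1, was at 1.92, 4.74 and 3.82 CPM in KO and 10.02, 10.7 and 9.94 CPM in WT (log2 fold change -1.56 ± 0.35 with adjusted p = 0.00459), and both kept their call without any single library. Ifit1, which binds viral RNA, was at 5.7, 15.8 and 9.25 CPM in KO and 20.5, 26.6 and 19.6 CPM in WT (log2 fold change -1.14 ± 0.26 with adjusted p = 0.0053) and lost its call with the 6 libraries alone (adjusted p = 0.166). Cxcl10, an interferon-induced chemokine, was at 2.16, 11.1 and 6.06 CPM in KO and 16.5, 23.4 and 19.1 CPM in WT (log2 fold change -1.63 ± 0.30 with adjusted p = 0.000909), with KO replicate 2 the highest of the KO libraries. It too lost its call with the 6 libraries alone (adjusted p = 0.154).

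The promoters of these genes were searched on both strands for GAAA followed by any 2 bases and a second GAAA, the core of the element bound by interferon-activated factors. It was present in 78.6% of the windows of the members that fell (11 of 14 with a window), in 52.9% of all tested members and in 3.37% of tested genes. Trim30a (chr7:104465144-104465443, minus strand) and Ifit1 (chr19:34640639-34640938, plus strand) are shown, with the matches on either strand in capitals. All matches lie before the start site, which is base 251 of each window.
Trim30a: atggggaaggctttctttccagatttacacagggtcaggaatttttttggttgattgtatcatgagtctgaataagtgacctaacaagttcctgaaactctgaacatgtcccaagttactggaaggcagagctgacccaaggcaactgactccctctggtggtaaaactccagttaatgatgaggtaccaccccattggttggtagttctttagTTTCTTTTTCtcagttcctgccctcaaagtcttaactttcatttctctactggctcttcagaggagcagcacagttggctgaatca
Ifit1: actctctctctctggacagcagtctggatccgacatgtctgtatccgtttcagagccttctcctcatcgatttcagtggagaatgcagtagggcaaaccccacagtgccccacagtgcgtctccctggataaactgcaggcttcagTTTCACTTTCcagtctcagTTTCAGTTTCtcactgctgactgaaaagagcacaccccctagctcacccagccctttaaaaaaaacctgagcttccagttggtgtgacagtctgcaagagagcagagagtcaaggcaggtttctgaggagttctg

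Antigen presentation genes depended on the same library. Of 22 MHC class I genes 1 fell with all libraries, and 16 without KO replicate 2. The summed level of the MHC class II list was 7874, 10948 and 8533 CPM in KO and 7147, 6528 and 6975 CPM in WT, of which Ctss made up most. Without Ctss the other 11 members came to 1720.3, 3539 and 1975 CPM in KO and 1922, 1842 and 2011 CPM in WT, so that KO replicate 2 lay above every WT library, KO replicate 1 below them all and KO replicate 3 among them. Of the 12 members 2 rose and 1 fell (median log2 fold change 0.23), whereas 2 rose and 3 fell (median -0.24) without KO replicate 2. Cd74, the invariant chain, was at 573, 1279 and 664 CPM in KO and 707, 671 and 763 CPM in WT, with KO replicate 2 far above the other 5 libraries, and did not pass. Ifi30, the lysosomal thiol reductase that opens antigens for MHC class II, was higher in every KO library, at 305, 243 and 288 CPM in KO and 159.6, 157 and 152 CPM in WT (log2 fold change 0.84 ± 0.06 with adjusted p = 1.79e-10). H2-Ob, a chain of the class II regulator H2-O, fell, at 0.147, 0.639 and 0.359 CPM in KO and 0.987, 1.3 and 1.03 CPM in WT (log2 fold change -1.55 ± 0.34 with adjusted p = 0.00155).

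**Figure D4:**
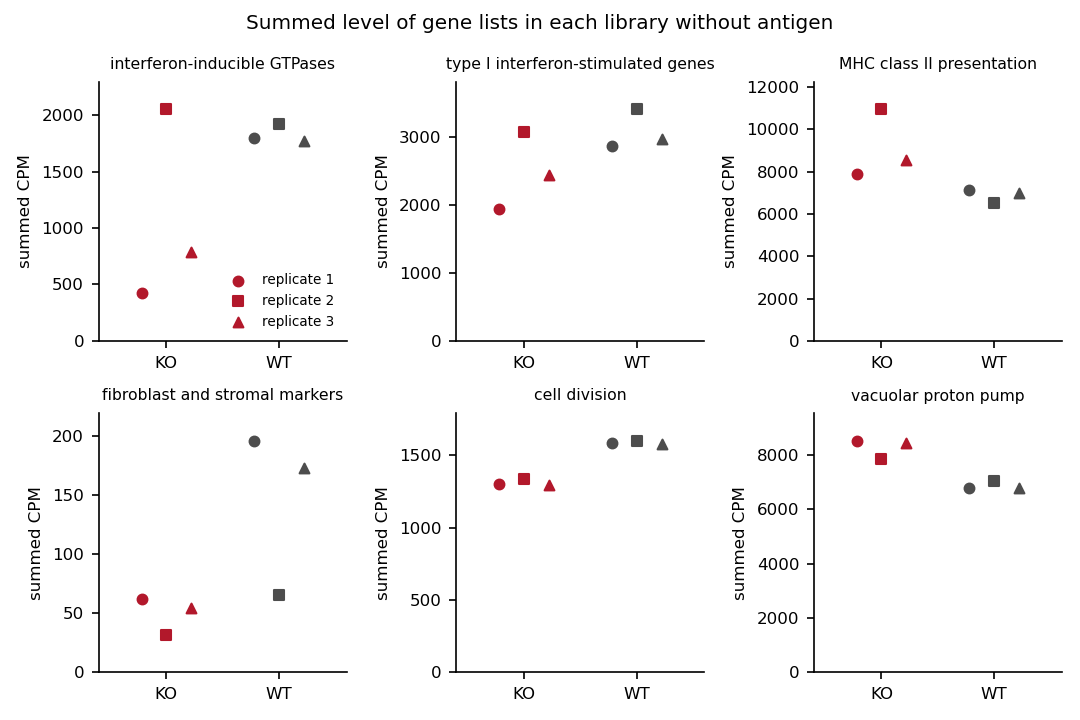
Summed CPM (vertical axis, from 0) of 6 gene lists in each library without antigen, KO left and WT right, with replicates 1 to 3 as circle, square and triangle. KO replicate 2 lies above the other KO libraries for the GTPases, interferon-stimulated genes and MHC class II genes, WT replicate 2 lies below the other WT libraries for fibroblast markers, and cell division and proton pump genes separate the genotypes in every library. Most of the MHC class II sum is Ctss.

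Markers of fibroblasts, which can persist in marrow cultures, were lower in KO, with 11 of 16 falling and none rising (median log2 fold change -1.55, or -1.51 with Lum, which had no count in KO, set at the limit of 3 counts over the KO libraries). Their summed level was 61.8, 32.1 and 54.4 CPM in KO and 196, 65.2 and 173 CPM in WT, and WT replicate 2 lay close to KO replicate 1. The count of lower members was 6 without KO replicate 2, 6 without KO replicate 3, 6 without WT replicate 1, 4 without WT replicate 3, and 1 with the 6 libraries alone. Postn, periostin, was at 3.29, 0.905 and 1.35 CPM in KO and 14.2, 3.81 and 11.2 CPM in WT (log2 fold change -2.39 ± 0.50 with adjusted p = 0.00255). Pdgfrb, a growth factor receptor of stromal cells, was at 0.933, 0.852 and 1.03 CPM in KO and 3.36, 1.16 and 3.1 CPM in WT (log2 fold change -1.42 ± 0.33 with adjusted p = 0.00333), and fitted on the 6 libraries alone their adjusted p was 0.139 and 0.0559. Col1a1, the chain of type I collagen, was at 7.86, 3.14 and 8.85 CPM in KO and 27, 7.63 and 25.7 CPM in WT with overlapping groups and did not pass.

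Several matrix genes had their lowest WT level in the same library, and the part of the fibroblast markers in them was not tested. Col4a1, a basement membrane collagen, was at 2.65, 2.02 and 2.2 CPM in KO and 10.7, 4.39 and 7.13 CPM in WT (log2 fold change -1.68 ± 0.34 with adjusted p = 0.0017). WT replicate 2 was the lowest WT library. Cxcl12, a stromal chemokine, had its lowest WT value there too, at 3.05, 1.28 and 1.3 CPM in KO and 11.8, 3.52 and 7.82 CPM in WT (log2 fold change -2.04 ± 0.42 with adjusted p = 0.0025). Fitted on the 6 libraries alone, Cxcl12 lost its call (adjusted p = 0.135). Adhesion genes of leukocytes and macrophages did not have this pattern: Itgb2, the common chain of leukocyte integrins, was at 1734, 1413 and 1584 CPM in KO and 1230.3, 1203 and 1194 CPM in WT (log2 fold change 0.38 ± 0.05 with adjusted p = 9.78e-07). Itga6, a laminin receptor chain, was at 383, 410.3 and 387 CPM in KO and 319, 348 and 326 CPM in WT (log2 fold change 0.25 ± 0.05 with adjusted p = 0.000218), and Vcam1 fell to 16.2, 19.4 and 13.9 CPM in KO, against 63.7, 60.7 and 59.3 CPM in WT (log2 fold change -1.9 ± 0.08 with adjusted p = 1.87e-14).

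Among markers of the other cells the cultures could hold, cytotoxic effector genes fell in 6 of 13 and rose in none, with Gzmc, a granzyme, at 0.442, 0.426 and 0.180 CPM in KO and 2.27, 3.23 and 2.76 CPM in WT (log2 fold change -2.99 ± 0.34 with adjusted p = 2.69e-07). Nkg7, a protein of cytotoxic granules, was at 1.72, 1.54 and 1.93 CPM in KO and 2.62, 2.94 and 3.05 CPM in WT (log2 fold change -0.72 ± 0.16 with adjusted p = 0.00193). Natural killer markers gave 1 higher and 1 lower of 8, and neutrophil markers 2 higher and 2 lower of 17 (25% and 23.5% called, against 16.9% of all genes). The higher natural killer marker was Tyrobp, given above with the macrophage fusion genes. Mpo, myeloperoxidase of immature neutrophils, was at 26.1, 28.4 and 28.2 CPM in KO and 40.7, 37.2 and 42.2 CPM in WT (log2 fold change -0.54 ± 0.12 with adjusted p = 0.00365), whereas S100a9, a calcium-binding protein of neutrophils and monocytes, was at 559, 513 and 518 CPM in KO and 553, 529 and 593 CPM in WT and did not pass.

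Cell division genes were lower in KO at rest. 28 of 33 fell and none rose (median log2 fold change -0.27), against 7.25% lower over all genes, and 22 to 28 fell when 1 library was left out. Their summed level was 1303, 1340.2 and 1292 CPM in KO and 1583, 1601 and 1579 CPM in WT, without overlap. Ccnb1, the cyclin of mitotic entry, was at 35, 32.9 and 35 CPM in KO and 42.9, 46.5 and 46.7 CPM in WT (log2 fold change -0.40 ± 0.05 with adjusted p = 7.64e-07). Top2a, the topoisomerase that untangles chromosomes, was at 163, 183 and 161 CPM in KO and 215, 213 and 209 CPM in WT (log2 fold change -0.33 ± 0.05 with adjusted p = 6.37e-05). Kif11, a spindle motor, was at 38.8, 42.3 and 42.1 CPM in KO and 50.5, 52 and 53.6 CPM in WT (log2 fold change -0.34 ± 0.06 with adjusted p = 5.60e-05). Anln, a scaffold of the cleavage furrow, was at 33.9, 35.5 and 33.8 CPM in KO and 46.4, 46.1 and 43.3 CPM in WT (log2 fold change -0.40 ± 0.06 with adjusted p = 2.66e-05). Cdc20, the activator of the anaphase-promoting complex, was at 12.5, 11.1 and 12 CPM in KO and 14.1, 15.7 and 18 CPM in WT (log2 fold change -0.42 ± 0.09 with adjusted p = 0.000741). Cenpa, the histone of the centromere, was at 41.9, 40.6 and 42.8 CPM in KO and 42.9, 43.5 and 41 CPM in WT and did not pass.

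Genes of DNA replication moved less. 7 of 31 fell and 1 rose (median -0.12), and the lower count was 4 without KO replicate 1, 11 without KO replicate 2, 2 without KO replicate 3 and 2 without WT replicate 2. Mcm10, a factor of replication start, was at 10.9, 12.8 and 10.2 CPM in KO and 14.6, 16.1 and 14.4 CPM in WT (log2 fold change -0.41 ± 0.09 with adjusted p = 0.00133). Uhrf1, which maintains DNA methylation behind the fork, was at 26.2, 29.6 and 27.4 CPM in KO and 32.4, 34.5 and 31.4 CPM in WT (log2 fold change -0.24 ± 0.06 with adjusted p = 0.0026). Pcna, the sliding clamp, was the member that rose, at 488, 501 and 451 CPM in KO and 406, 458 and 409 CPM in WT (log2 fold change 0.18 ± 0.04 with adjusted p = 0.00266), with overlapping groups, and lost its call with the 6 libraries alone (adjusted p = 0.0819).

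Promoters of the cell division list were searched for TTTGAA, the cell cycle homology region, and for CCAAT, the box bound by NF-Y, on both strands. TTTGAA was in 75% of the windows of members that fell (18 of 24), in 79.3% of all tested members (23 of 29) and in 12.3% of all tested genes with a window. CCAAT was in 79.2% (19 of 24), 79.3% (23 of 29) and 38.9% of the same sets. Top2a (chr11:99024140-99024439, minus strand) and Cdc20 (chr4:118437294-118437593, minus strand) hold both motifs and are shown with each match in capitals.
Top2a: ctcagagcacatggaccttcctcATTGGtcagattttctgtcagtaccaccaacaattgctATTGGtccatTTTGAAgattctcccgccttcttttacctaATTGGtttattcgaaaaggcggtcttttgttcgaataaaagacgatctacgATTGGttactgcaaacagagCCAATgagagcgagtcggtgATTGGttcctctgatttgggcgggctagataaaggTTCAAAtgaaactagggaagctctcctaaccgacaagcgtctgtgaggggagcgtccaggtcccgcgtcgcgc
Cdc20: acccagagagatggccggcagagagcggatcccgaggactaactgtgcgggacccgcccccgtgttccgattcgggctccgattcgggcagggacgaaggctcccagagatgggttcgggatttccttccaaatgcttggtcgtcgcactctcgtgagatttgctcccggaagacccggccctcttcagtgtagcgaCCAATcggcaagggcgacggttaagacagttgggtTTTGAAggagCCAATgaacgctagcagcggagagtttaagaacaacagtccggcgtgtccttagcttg

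With tumour antigen the same genes lay on the other side. In the 3 KO libraries with antigen against the 3 WT libraries with antigen, where 7.7% of all genes were higher and 7.62% lower, 31 of 33 cell division genes rose and none fell (median 0.52). The difference between the 2 genotype effects passed for all 33 members, against 8.39% of all genes (1183), and for 32 or 33 of them whichever of the 12 libraries was left out. Ccnb1 had 37.3, 34.4 and 34.5 CPM in KO and 27.6, 26.7 and 26.8 CPM in WT with antigen, and its genotype effect without antigen minus that with antigen was -0.80 ± 0.07 (log2, adjusted p = 4.93e-08). Top2a had 149, 142 and 128 CPM in KO and 93.7, 103 and 103 CPM in WT with antigen, and a difference of -0.81 ± 0.08 (adjusted p = 1.55e-07). Of the replication genes, 21 of 31 rose with antigen and 18 passed the test of the difference.

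Interferon-stimulated genes did not keep their lower level either. With antigen 1 of 45 rose (median 0.13). The difference passed for 11, a count that was 2 without KO replicate 1, 29 without KO replicate 2, 2 without KO replicate 3, 0 without WT replicate 2 and 5 without WT replicate 3. Leaving out a library with antigen gave 2 without KO replicate 1, 7 without KO replicate 3, 6 without WT replicate 1 and 3 without WT replicate 3. Fibroblast markers were lower in KO in both settings, with 12 of 16 lower with antigen, and the difference passed for 1, Thy1. Lysosomal hydrolases were higher in 8 and lower in 1 of 28 with antigen (median 0.05), and the difference passed for 9, each with the more positive genotype effect at rest. That count was 4 without KO replicate 1 with antigen. Acp5 had 268, 296 and 290.2 CPM in KO and 227, 208 and 209 CPM in WT with antigen, and a difference of 0.94 ± 0.11 (adjusted p = 1.13e-05).

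Of the 1183 genes that passed the test of the difference, 649 had a more positive and 534 a more negative genotype effect without antigen. Ighm is one of the 2 immunoglobulin genes among them: it was at 110.4, 78.9 and 93 CPM in KO and 30.5, 28.6 and 34.1 CPM in WT with antigen, a log2 fold change of 1.6 there (adjusted p = 1.28e-05). Tlr2 had 161, 197 and 196 CPM in KO and 199.7, 181 and 203 CPM in WT with antigen, so its lower level in KO at rest was not seen there (difference -0.86 ± 0.10, adjusted p = 9.09e-06). Tmem176b was also closer between the genotypes with antigen, at 126, 130.4 and 132 CPM in KO and 148, 157 and 155 CPM in WT (difference -0.80 ± 0.06, adjusted p = 3.03e-09).

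**Figure D5:**
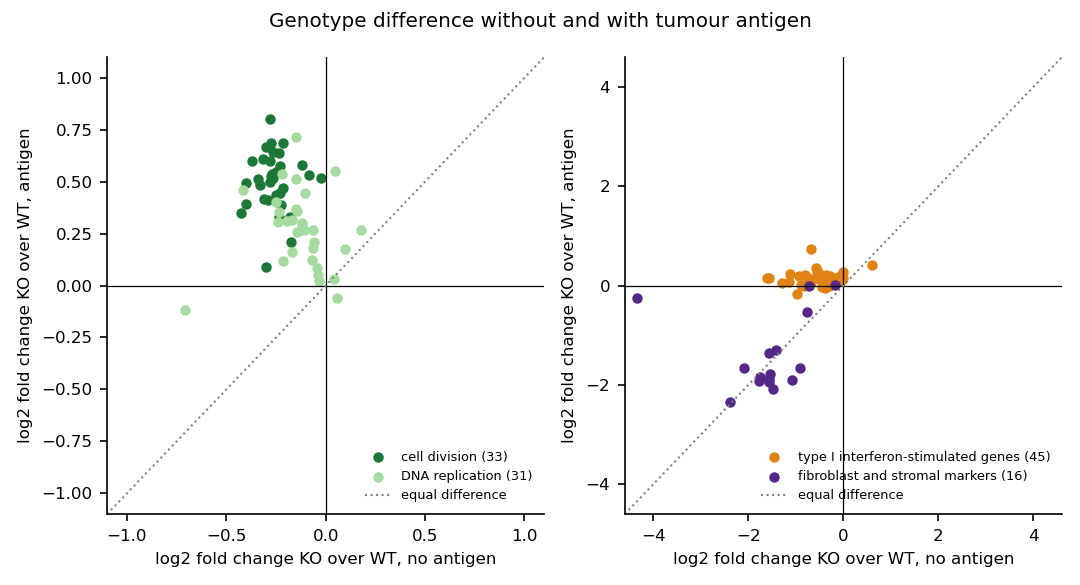
Log2 fold change of KO over WT with antigen (vertical axis) against that without antigen (horizontal axis), 1 point per gene, from libraries that are not shared. Left, cell division and DNA replication genes, most of which lie left of 0 and above 0. Right, interferon-stimulated genes, most of which lie left of 0 near a height of 0, and fibroblast markers, most of which lie near the dotted line of equal difference; the point farthest left is Lum, with 0 counts in KO and 7 in WT.

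Genes of oxidative phosphorylation, the mitochondrial genome and ribosomal proteins gave no calls with all libraries. None of the 37 nuclear genes of oxidative phosphorylation passed edgeR's test (median log2 fold change 0.01), 1 had an unadjusted p under 0.05, and DESeq2 called 0. The 37 ribosomal protein genes gave no call by edgeR (median -0.0043), 1 unadjusted p under 0.05 and 0 by DESeq2. The 10 genes of the mitochondrial genome gave no call by edgeR (median -0.04), 1 unadjusted p under 0.05 and 0 by DESeq2. Glycolysis and hypoxia genes gave 2 higher and 2 lower of 31 (12.9% called, against 16.9% of all genes). Of these, 13 had an unadjusted p under 0.05 in edgeR's test, and DESeq2 called 6. Folding and stress genes of the endoplasmic reticulum gave 1 higher and 2 lower of 26 (11.5% called), with 4 unadjusted p under 0.05 and 3 called by DESeq2.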

How the data were processed

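Poly(A) RNA was sequenced in 24 bulk libraries, and per the labels and file headers the authors deposited 1 table of raw read counts per gene, trimmed with fastp and on GRCm39 per the submitters' processing notes. The aligner, counter, strand setting and annotation release are not given in the sources used here. Counts were used as deposited. Rows without a gene symbol (346, 0.0228% of counts) stayed in by their gene ID, every count column was mapped to a sample, and no library was identical to another. CPM are counts per effective library size after TMM scaling.

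All 24 libraries were fitted in edgeR 4.0.16 (R 4.3.3) with 1 coefficient per group (16 residual degrees of freedom), filterByExpr, and the quasi-likelihood test with robust dispersion. Calls are Benjamini-Hochberg adjusted p under 0.05 over all 14099 genes, and ± after a log2 fold change is its SE. The p-value in every sentence is from this fit unless it names another. Alternatives were median-of-ratios factors, DESeq2 1.42.0, no low-count filter, a replicate block, the 6 libraries alone, no immunoglobulin genes and each library left out. Depth was 19062267 to 22755541 counts a library. Ratios of counts are given where a group averaged under 3 counts a library, with exact 95% intervals that cover counting error only.

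The comparison and the gene lists were chosen with earlier results of these data known. Genes named are Tmem175, the 20 called genes with the largest change in each direction, the lowest adjusted p or the largest gap in CPM, up to 8 called and 4 other members a list, immunoglobulin constant regions, the neighbours of Tmem175, and the 12 largest differences in each direction between the genotype effects without and with antigen. Genes picked by the largest change or difference needed a mean of at least 2 log2 CPM. Those picked by the largest change also needed KO and WT values that did not overlap, and immunoglobulin variable segments were left out of them. Promoter windows are RefSeq GRCm38.p6, whose build differs from that of the counts, and were matched by symbol (10220 of 14099 tested genes).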

Additional observations from a re-analysis of the deposited data

Results flagged for a closer look

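The genotype difference without antigen was set against that with antigen, in 12 libraries of which none is shared between the 2 comparisons. The results given here are those for which a test of the difference itself passed. In all 1183 genes did, among them 33 cell division genes, 18 DNA replication genes and 11 type I interferon-stimulated genes, whose values stand with the comparison above.

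The genes with the most positive differences included Smpd3, a sphingomyelinase, whose genotype effect without antigen exceeded that with antigen by 3.14 on the log2 scale. Fn1, which encodes fibronectin, was at 175, 119.97 and 157 CPM in KO and 142, 107 and 128 CPM in WT without antigen and 14.7, 15.1 and 16.3 CPM in KO and 64.1, 51.8 and 75.7 CPM in WT with antigen, a difference of 2.31. Slpi, an inhibitor of neutrophil proteases, was at 14.9, 10.6 and 12.5 CPM in KO and 1.78, 1.79 and 1.92 CPM in WT without antigen and 91.3, 91.5 and 95.8 CPM in KO and 59.6, 53.5 and 55.6 CPM in WT with antigen, a difference of 2.07. The others were Nes (2.36), an intermediate filament gene, Chst3 (2.16), a sulfotransferase, Sardh (1.97), a mitochondrial enzyme of glycine metabolism, Samd4 (1.66), an RNA-binding protein gene, Gprc5b (1.62), an orphan receptor, Fgfr1 (1.34), a receptor of fibroblast growth factors, Npas2 (1.09), a circadian factor, Cmbl (1.07), a hydrolase, and Lrrc32 (1.02), which holds latent TGF-β on the cell surface.

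The most negative differences included Gzmb, granzyme B, at 13.3, 13.8 and 13.3 CPM in KO and 42.7, 46.4 and 45.9 CPM in WT without antigen and 39.5, 45.3 and 48 CPM in KO and 33.6, 28 and 40.7 CPM in WT with antigen, a difference of -2.12. Ccl7 differed by -1.78 and Ccl2 by -1.49, with Ccl2 at 317, 195 and 222 CPM in KO and 237, 192 and 204 CPM in WT with antigen. The interferon-stimulated genes Ifit1bl1 and Ifit3 differed by -1.72 and -1.36, and Tnfsf10 by -1.21. The others were Ighm (-1.66), Rasgrp3 (-1.86), an activator of Ras, Mgl2 (-1.58), a lectin of macrophages and dendritic cells, Ltf (-1.34), lactoferrin of neutrophil granules, Marcksl1 (-1.33) and G530011O06Rik (-1.27), a transcript without a described role here.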

How the results depend on the processing

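No named gene that passed, with all libraries or under an alternative, changed sign. The median log2 fold change of 15 of 55 gene lists did under some alternative. It was within 0.1 of 0 with all libraries for 13 of these, oxidative phosphorylation and ribosomal proteins included, and the MHC class II median was -0.24 without KO replicate 2, against 0.23 with all libraries. All libraries gave 2379 calls. Leaving out 1 of the 6 gave 1651 to 2624 calls, 1020 to 1383 higher and 631 to 1241 lower, and 1604 to 2036 of these calls were among the 2379. The lowest count of lower genes, 631, came without KO replicate 3, and 603 of these were among the 1022. The difference between the genotype effects without and with antigen gave 819 to 1697 calls when 1 of the 12 libraries was left out. Scaling by median-of-ratios factors gave 2428 genes called, the Wald test of DESeq2 2220, keeping genes with low counts 2545, a fit of the 6 libraries alone 1765, the table without immunoglobulin genes 2185, and leaving out both libraries numbered 2, chosen after seeing the data, 2335. The immunoglobulin share of counts was 21.8 times higher in KO than in WT, and 17.3 times for the constant regions alone (exact permutation test, p = 0.1, the smallest that 3 against 3 allows). Of 159 named genes called, 147 kept call and direction under every alternative. Among the other 12, Cmbl, Gprc5b, Ifit3 and Npas2 lost the call when KO replicate 3 was left out, all but Npas2 also without KO replicate 1, and the rest only with the 6 libraries alone. Another 11 named genes that did not pass did so under some alternative. With a replicate block, 2876 genes were called (1598 higher, 1278 lower) and 1596 for the difference. Same-numbered libraries deviated together with correlations of 0.157, 0.229 and 0.0785, each library's best match being its own number, a hint from the data and not from the design, so the numbers were not used to pair samples. Depth limits genes near the floor of 3 counts a library, where some intervals of ratios span more than 10-fold.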
